A study of Homo sapiens with 12 samples.

Results

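The nuclear genes for subunits of the respiratory chain were followed in HK-2 cells, an immortalised human renal proximal tubule line. The genes were picked by symbol alone, from the naming patterns of complexes I (NDUF), II (SDH), III (UQCR and CYC1), IV (COX4 to COX8 forms) and V (ATP5), with read-through, antisense and pseudogene symbols dropped. The patterns matched 94 of 26334 symbols, of which 5 with a hyphen and 2 ending in P and a digit were dropped. That left 87 genes, namely 36 of complex I, 4 of complex II, 10 of complex III, 19 of complex IV and 18 of complex V.

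The cells carried a doxycycline-inducible PRCC-TFE3 gene, a fusion of PRCC with the transcription factor gene TFE3 that is found in a kind of renal cell carcinoma. There were 4 groups of 3 libraries, all sampled after 48 h. One group received doxycycline (Dox) with 100 nM of MSC2530818, an inhibitor of the Mediator kinases CDK8 and CDK19. The others received Dox alone, the inhibitor alone, or the DMSO vehicle. All groups carried the inducible gene and grew under puromycin and blasticidin selection, and the labels call the libraries independent biological replicates. Whether the line is a single clone is not given in the sources used here. Doxycycline is a tetracycline and can also act on mitochondrial ribosomes, and every group given it carried the fusion gene, so the drug and the fusion cannot be told apart. In bulk RNA, fewer cells of a kind and less RNA per cell cannot be told apart either.

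The respiratory chain sits in the inner mitochondrial membrane. Complexes I and II pass electrons from NADH and succinate to coenzyme Q, complex III passes them on to cytochrome c, complex IV hands them to oxygen, and complex V (ATP synthase) uses the resulting proton gradient to make ATP. Nuclear genes supply most of the subunits, and all those of complex II, while the remaining subunits are encoded by mitochondrial DNA. The renal proximal tubule is known for its dense mitochondria and its reliance on oxidative metabolism. The deposited table holds 0 symbols with the MT- prefix, so the mitochondrially encoded partners were not analysed here.

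Promoters are shown for 4 genes on which the results below turn: 3 that were lower with the inhibitor (NDUFS7, COX8A and NDUFS1) and 1 that was higher (UQCRC1). Each is the 250 bases before the annotated start, from RefSeq on GRCh38.p14, written 5′ to 3′ on the strand of the gene. Capitals mark matches on either strand to 4 motifs known from promoters of respiratory or lysosomal genes: the E-box CACGTG, bound by MiT/TFE proteins among others, the core CGCATGCG of the NRF1 site, the ETS form CCGGAAG, bound by GABPA among others, and the YY1 form ATGGCGG. In these 4 windows no match overlapped another.
NDUFS7: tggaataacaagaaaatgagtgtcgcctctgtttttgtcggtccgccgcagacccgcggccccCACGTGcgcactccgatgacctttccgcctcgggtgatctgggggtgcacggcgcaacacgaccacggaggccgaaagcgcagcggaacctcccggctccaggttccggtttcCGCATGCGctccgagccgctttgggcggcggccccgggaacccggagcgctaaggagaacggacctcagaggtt
COX8A: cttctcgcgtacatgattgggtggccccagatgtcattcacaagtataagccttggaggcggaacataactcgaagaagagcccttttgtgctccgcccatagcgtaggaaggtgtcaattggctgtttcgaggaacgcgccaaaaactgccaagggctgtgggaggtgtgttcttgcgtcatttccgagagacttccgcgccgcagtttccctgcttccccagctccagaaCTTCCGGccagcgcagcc
NDUFS1: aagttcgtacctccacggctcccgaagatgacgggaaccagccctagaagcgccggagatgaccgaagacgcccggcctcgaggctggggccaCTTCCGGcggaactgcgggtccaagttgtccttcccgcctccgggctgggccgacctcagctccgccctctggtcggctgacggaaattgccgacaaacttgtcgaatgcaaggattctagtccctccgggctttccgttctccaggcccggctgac
UQCRC1: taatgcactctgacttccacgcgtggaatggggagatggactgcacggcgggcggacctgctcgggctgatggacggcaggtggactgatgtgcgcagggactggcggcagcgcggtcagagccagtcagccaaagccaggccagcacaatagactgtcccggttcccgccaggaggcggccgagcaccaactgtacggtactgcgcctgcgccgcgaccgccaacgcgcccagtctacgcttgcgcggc
These windows lie at chr19:1383657-1383906 (plus strand), chr11:63974370-63974619 (plus), chr2:206159445-206159694 (minus) and chr3:48609647-48609896 (minus). The NDUFS7 window holds an E-box beginning 187 bases before the start and an NRF1 core beginning 74 bases before it. The COX8A window holds an ETS form 18 bases before the start and the NDUFS1 window one 157 bases before it, while in the UQCRC1 window none of the 4 was found. Of the 80 tested respiratory chain genes, 65 had a promoter entry under their current symbol. All tested genes were matched only by the symbol in the deposited table, which gave 9426. Genes listed by an older symbol, renamed respiratory chain genes included, can therefore be missing from the 9426. The E-box stood in 9.23% of the 65 promoters and in 9.28% of all 9426. The NRF1 core stood in 13.8% against 3.44%, the ETS form in 24.6% against 16.6%, and the YY1 form in 7.69% against 4.04%. A match describes letters and says nothing of binding.

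RNA was measured as FPKM, fragments scaled by transcript length and library size, so levels can be compared between genes. Absolute depth is unknown, since the table holds no counts. FPKM sums per library lay between 429208 and 473950, with 11952 to 12333 genes at 1 FPKM or more. The induced gene checked the labels: TFE3 averaged 84.2 ± 3.1 FPKM with Dox plus inhibitor, 149.7 ± 4.0 with Dox, 27.8 ± 1.7 with the inhibitor and 35.8 ± 3.1 with vehicle (SD, n = 3 each). PRCC, the other partner, averaged 28.6 ± 3.6, 41.7 ± 1.7, 22.8 ± 2.3 and 28.5 ± 2.6 FPKM in the same 4 groups (SD, n = 3 each), and the fusion transcript cannot be separated from either resident gene in these values. Of 8 proximal tubule markers, PAX8 (81.6 to 135 FPKM), GGT1 and MME passed the filter on low values described below, whereas LRP2, CUBN, SLC34A1, AQP1 and ANPEP stayed under 1 FPKM in every library. Of the 4 epithelial markers KRT8, KRT18, EPCAM and CDH1, 3 passed. The keratin genes KRT8 and KRT18 lay above 147 FPKM throughout, and 0 of 8 leukocyte, endothelial and podocyte markers passed.

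Replicate 1 stood apart for these genes before any group was compared. It was the highest of its group for 60 of 80 respiratory chain genes with Dox plus inhibitor, 51 with Dox, 72 with the inhibitor and 66 with vehicle (75%, 63.8%, 90% and 82.5%). Over all 12649 tested genes the shares were 40.9%, 29.8%, 44.5% and 48%. The median gene of the chain lay 0.16 log2 units above its group mean in inhibitor replicate 1, the largest such deviation of the 12 libraries. These transcripts are short, with a median length of 714 bases against 1732.5 over all tested genes. The part of transcript length or library in the position of replicate 1 was not tested, and the main counts below are also given without replicate 1 of each group.

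Of the 87 genes, 80 reached 1 FPKM in at least 3 libraries and were tested, and all of these 80 did so in all 12. Most were abundant: 33 averaged at least 100 FPKM over the 12 libraries, 43 lay between 10 and 100, 4 between 1 and 10, and 7 below 1. The median level was 158 FPKM for complex IV, 117 for complex V, 69.3 for complex III, 66.5 for complex I and 56.5 for complex II. The highest was ATP5E, the epsilon subunit of ATP synthase, at 739 FPKM. NDUFS5, an accessory subunit of complex I, averaged 331 FPKM, and UQCRH, the hinge protein of complex III, 255. In complex II the range ran only from SDHC (31.5 FPKM) to SDHB (105). Together the 87 genes took 2.16% ± 0.07 of the FPKM sum with Dox plus inhibitor, 2.28% ± 0.05 with Dox, 2.09% ± 0.12 with the inhibitor and 2.24% ± 0.07 with vehicle (SD, n = 3 each).

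**Figure D1:**
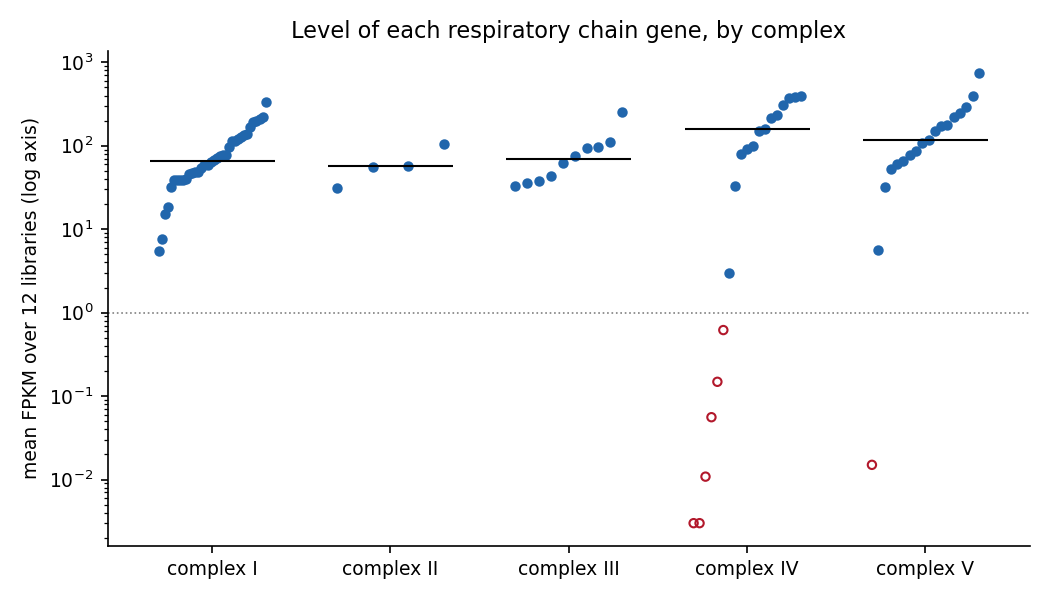
Mean FPKM over the 12 libraries (vertical, log axis) of each respiratory chain gene, grouped by complex; filled points are the 80 tested genes, open points those not tested, and the horizontal bars are medians of the tested genes. Tested genes span 3.0 (COX6A2) to 739 FPKM (ATP5E), and 6 of the 7 genes below the dotted line at 1 FPKM belong to complex IV.

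The isoform pairs of complex IV separated by level. COX4I1, the common form of subunit 4, averaged 373 FPKM, while its oxygen-regulated partner COX4I2 was listed at 0 in all 12 libraries. COX7B2 was likewise listed at 0 throughout, against 396 FPKM for COX7B, and COX8C reached 0.13 FPKM in a single Dox library, against 158 FPKM on average for COX8A. The heart and muscle form COX7A1 stayed at 0.41 FPKM or less and the testis form COX6B2 at 0.22 or less, against 149 for COX7A2 and 233 for COX6B1. COX6A2, the other heart and muscle form, was the one such gene above the filter, at 3.0 FPKM against 305 for COX6A1. NDUFA4L2, a hypoxia-responsive relative of NDUFA4, lay between 0.25 and 0.89 FPKM, against 33.0 on average for NDUFA4. In these cells the ubiquitous forms therefore carried nearly all of the signal of each pair.

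Some symbols need care. ATP5S and ATP5SL fit the pattern but are not subunits of ATP synthase, and COX7A2L is an assembly factor of supercomplexes. UQCRHL is a near-identical copy of UQCRH, and NDUFC2 overlaps a read-through transcript, so the split of their fragments is uncertain. The pattern misses NDUFAB1, in whose symbol NDUFA is followed by a B and not directly by a digit. The table uses older symbols for 20 of the genes, such as ATP5F1 for ATP5PB and ATP5G1 to ATP5G3 for ATP5MC1 to ATP5MC3.

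With the inhibitor in uninduced cells, 30 respiratory chain transcripts grouped under complexes I, III, IV and V were called lower. NDUFS7, COX8A, NDUFA5, ATP5F1, NDUFS1 and UQCRFS1 led them, and the 4 genes of complex II had no call. The share called lower was above that of all tested genes as deposited and after quantile normalization. It was below that share after median-ratio scaling and without vehicle replicate 1. A gene was called when its limma p, adjusted by Benjamini and Hochberg over all 12649 tested genes, was below 0.05, and all changes are on the log2(FPKM + 1) scale. The 30 were 37.5% of the 80 genes, and 1 gene was higher. The background was 26.3% lower and 11.7% higher over all tested genes. The median change was -0.18 over the 80 and -0.12 over all tested genes, with 72 of the 80 negative.

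By complex, 14 of 36 genes of complex I were lower, 0 of 4 of complex II, 3 of 10 of complex III, 6 of 13 of complex IV and 7 of 17 of complex V. Within complex I, 5 of the 7 core subunits, those shared with bacterial enzymes, were lower, and 9 of 29 accessory subunits. Whether these shares differ between complexes was not tested.

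The count depends on how libraries are scaled. After median-ratio scaling the median of all tested genes moved to -0.01 and that of the 80 to -0.06, and 10 of the 80 (12.5%) were called lower and 2 higher, against 14.5% lower and 17.5% higher over all genes. The 10 still called were NDUFS1, NDUFS7, NDUFV2, NDUFA6, NDUFC1, UQCRC2, COX8A, ATP5A1, ATP5C1 and ATP5F1. The same 10 kept their call under every alternative run. Without replicate 1 of each group 47 genes (58.75%) were lower, against 31.7% of all genes, and the 47 include all 30. Without inhibitor replicate 2 or without inhibitor replicate 3 the count was 19 (23.75%), against 20.6% and 23.0% of all genes. Without vehicle replicate 1 it was 21 (26.25%), against 27.0% of all genes, and without inhibitor replicate 1 it was 45 (56.25%), against 25.2%.

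NDUFS7 (chromosome 19, 1383907 to 1395584) encodes a core iron-sulfur subunit near the coenzyme Q site of complex I. It stood at 32.4, 28.9 and 25.6 FPKM in the 3 inhibitor libraries, against 51.1, 43.4 and 44.2 in the vehicle libraries. Every inhibitor library was below every vehicle library, and the change was -0.66 ± 0.09 (SE, adjusted p = 0.000206 by limma). NDUFS1 (chromosome 2, 206114817 to 206159444), the largest core subunit and carrier of several iron-sulfur clusters, had 26.4, 25.8 and 25.4 FPKM with the inhibitor, against 36.5, 35 and 35.5 with vehicle. Its libraries hardly varied within a group, the groups did not overlap, and the change was -0.45 ± 0.04 (SE, adjusted p = 1.5e-05 by limma).

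NDUFA5 (chromosome 7, 123536997 to 123601651), an accessory subunit of the matrix arm, is among the lowest genes of the set. It had 2.56, 3.66 and 4.64 FPKM with the inhibitor, against 4.09, 5.94 and 6.95 with vehicle. Here the groups overlap, and replicate 1 is the lowest of each, contrary to most genes of the chain. The change of -0.53 ± 0.18 (SE, adjusted p = 0.0376 by limma) lost its call after median-ratio scaling, with no filter and without any 1 of 8 libraries (Dox 1, 2 or 3, Dox plus inhibitor 2, inhibitor 1 or 2, vehicle 2 or 3).

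In complex IV, COX8A (chromosome 11, 63974620 to 63976543), the small subunit 8, had 141, 119 and 120 FPKM with the inhibitor, against 222, 177 and 158 with vehicle. All inhibitor libraries were lower, with a change of -0.54 ± 0.11 (SE, adjusted p = 0.0026 by limma). In ATP synthase, ATP5F1 (chromosome 1, 111449464 to 111462773), subunit b of the peripheral stalk, had 50.5, 51.6 and 54.4 FPKM with the inhibitor, against 65.1, 74.0 and 78.1 with vehicle. The groups did not overlap, and the change was -0.46 ± 0.07 (SE, adjusted p = 0.000274 by limma).

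Complex III held genes that moved in opposite directions. UQCRC1 and UQCRC2 encode the large matrix-side pair of proteins known as core 1 and core 2, and UQCRFS1 encodes the Rieske iron-sulfur protein. UQCRC1 (chromosome 3, 48599002 to 48609646) was the only gene of the 80 called higher, with 130, 115 and 109 FPKM with the inhibitor, against 106, 94.3 and 90.2 with vehicle. The groups did not overlap, and the change of 0.28 ± 0.07 (SE, adjusted p = 0.0125 by limma) kept its call under every alternative run. UQCRC2 (chromosome 16, 21953361 to 21983660) had 23.6, 26.7 and 29 FPKM with the inhibitor, against 33.5, 34.4 and 35.4 with vehicle. It was lower in every inhibitor library, by a change of -0.37 ± 0.07 (SE, adjusted p = 0.00135 by limma).

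UQCRFS1 (chromosome 19, 29205320 to 29213151) had 102, 85.3 and 69.8 FPKM with the inhibitor, against 126, 106 and 107 with vehicle. Its inhibitor libraries spread widely but all lay below vehicle, with a change of -0.41 ± 0.11 (SE, adjusted p = 0.0162 by limma), which lost its call after median-ratio scaling and when vehicle replicate 1 was left out. UQCRB, a small accessory subunit, was the other gene of complex III called lower (-0.29, adjusted p = 0.0278 by limma). Its call ended after median-ratio scaling, quantile normalization or removal of the trend on GC content and length. It also ended without inhibitor replicate 2, inhibitor replicate 3 or vehicle replicate 3.

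The ratio of UQCRC1 to UQCRC2 within a library does not depend on how libraries are scaled; it was calculated after the values were seen and is a description only. It was 2.95, 2.85 and 2.83 with Dox plus inhibitor, 2.04, 2.06 and 2.04 with Dox, 5.51, 4.30 and 3.76 with the inhibitor and 3.17, 2.74 and 2.55 with vehicle. The lowest inhibitor library lay above the highest vehicle library, and all Dox plus inhibitor libraries above all Dox libraries.

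Complex II, which is also the citric acid cycle enzyme succinate dehydrogenase, stayed near its vehicle level with the inhibitor in uninduced cells. SDHA (chromosome 5, 218320 to 268746), the flavoprotein, had 57.7, 55.5 and 52.6 FPKM with the inhibitor, against 61.0, 56.3 and 53.0 with vehicle, and the groups overlap. The changes of SDHA, SDHB, the iron-sulfur subunit, and SDHD, a membrane anchor, were -0.04 ± 0.06, -0.01 ± 0.08 and -0.05 ± 0.08 (SE). SDHC, the other anchor, had a change of 0.13 ± 0.07 (SE, adjusted p = 0.15 by limma). With 3 libraries a group, changes of the size of these errors would not have been detectable. In the comparison of Dox plus inhibitor with Dox, the 4 changes ran from -0.17 to 0.16. None was called, and 2 had an unadjusted limma p under 0.05. For Dox against vehicle they ran from -0.05 to 0.18, again with no call, and 1 had an unadjusted limma p under 0.05.

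**Figure D2:**
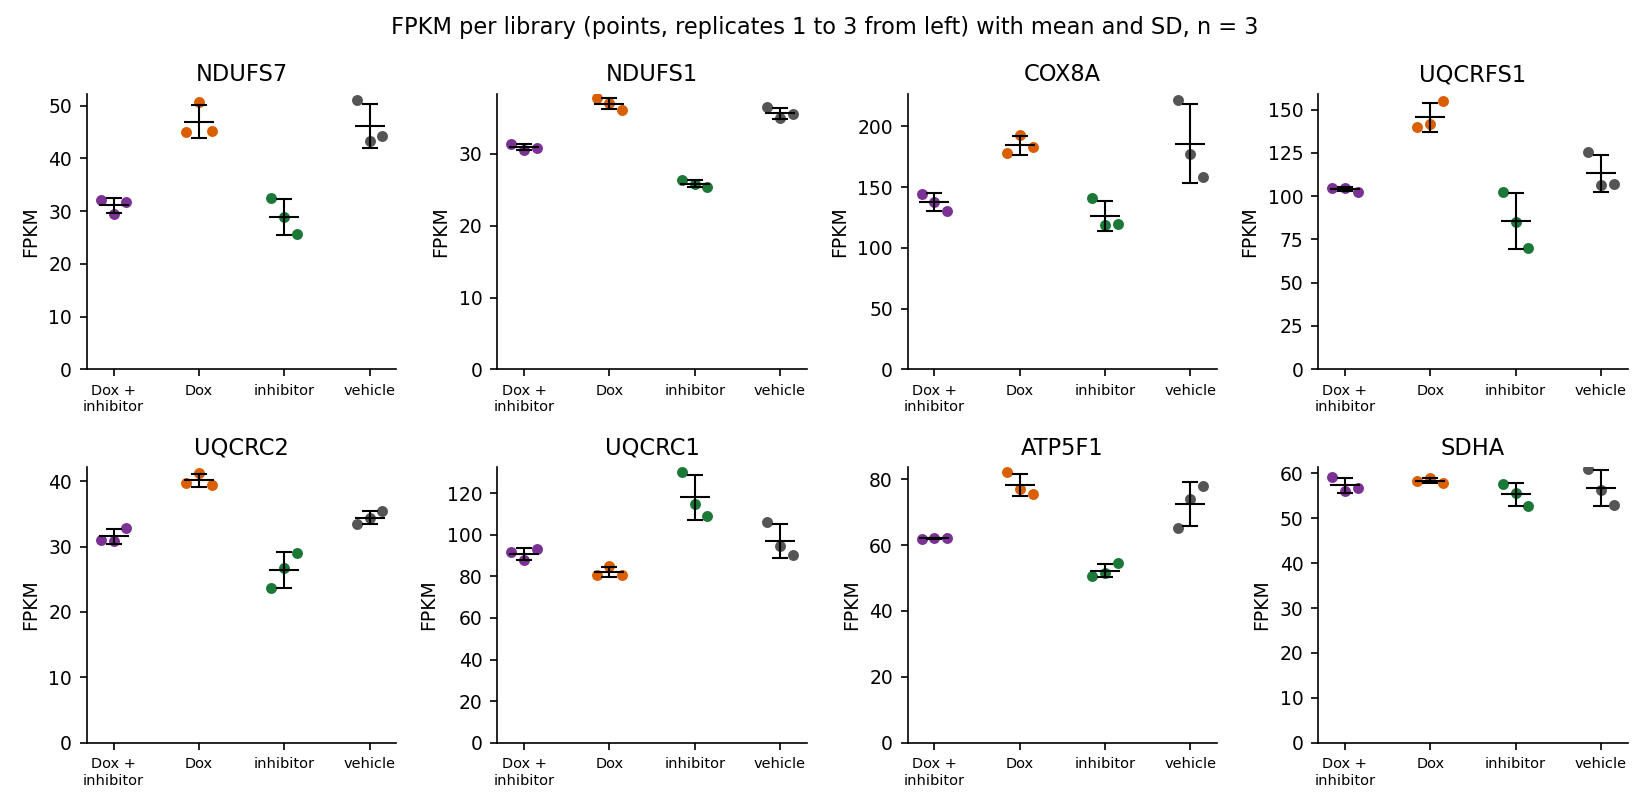
FPKM of 8 genes in each library (points, replicates 1 to 3 from left), with the mean (long bar) and SD (n = 3) of each group, on axes from 0. NDUFS7, NDUFS1, COX8A, UQCRFS1, UQCRC2 and ATP5F1 are lower in the inhibitor columns than in their matched columns without it, UQCRC1 is higher, and SDHA is level.

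In Dox-treated cells the inhibitor was again followed by lower respiratory chain transcripts and no called rise. NDUFA5, NDUFS7, UQCRFS1, COX8A, NDUFB6 and COX6C had the largest called falls. With Dox plus inhibitor against Dox, 23 of the 80 genes (28.75%) were lower and 0 were higher, against a background of 20.8% lower and 11.3% higher over all tested genes. The median change was -0.14 over the 80 and -0.08 over all tested genes, and 66 of the 80 were negative. Lower calls fell on 11 of 36 genes of complex I, 0 of 4 of complex II, 2 of 10 of complex III, 4 of 13 of complex IV and 6 of 17 of complex V. Of the 7 core subunits of complex I, 5 were again lower, and of the 29 accessory ones 6.

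After median-ratio scaling 13 of the 80 (16.25%) were lower and 3 higher, against 13.5% and 15.4% of all genes. After quantile normalization 28 (35%) were lower and 2 higher, against 14.9% and 15.1% of all genes. Without replicate 1 of each group 42 were lower and 2 higher, the 42 including all 23, against 24.3% and 12.1% of all genes. The count was 14 (17.5%) without Dox replicate 1 and 13 (16.25%) without Dox plus inhibitor replicate 2, against 15.1% and 15.8% of all genes.

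NDUFS7 had 32.1, 29.5 and 31.7 FPKM with Dox plus inhibitor, against 45.0, 50.7 and 45.3 with Dox. The groups stood well apart, at -0.58 ± 0.09 (SE, adjusted p = 0.000588 by limma). NDUFA5 had 4.16, 5.06 and 5.37 FPKM with Dox plus inhibitor, against 8.05, 7.39 and 8.19 with Dox. In induced cells this gene, too, showed no overlap, at -0.60 ± 0.18 (SE, adjusted p = 0.0243 by limma), although the call ended without any 1 of Dox replicate 1 or 3 or Dox plus inhibitor replicate 1 or 2.

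UQCRFS1 had 104, 105 and 103 FPKM with Dox plus inhibitor, against 140, 142 and 155 with Dox. The change was -0.48 ± 0.11 (SE, adjusted p = 0.00801 by limma), with no overlap. UQCRC2 had 31.0, 30.8 and 32.9 FPKM with Dox plus inhibitor, against 39.6, 41.3 and 39.5 with Dox, also without overlap, at -0.34 ± 0.07 (SE, adjusted p = 0.00307 by limma). UQCRC1 had 91.6, 87.7 and 93.0 FPKM with Dox plus inhibitor, against 80.7, 85.0 and 80.5 with Dox. Its Dox plus inhibitor libraries were all above its Dox libraries, but the change of 0.14 ± 0.07 was not called (SE, adjusted p = 0.171 by limma).

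COX8A had 145, 138 and 130 FPKM with Dox plus inhibitor, against 178, 193 and 183 with Dox, a change of -0.42 ± 0.11 (SE, adjusted p = 0.0129 by limma). COX6C, a small subunit of complex IV, had 96.8, 81.1 and 82.6 FPKM with Dox plus inhibitor, against 124, 109 and 112 with Dox. Both genes were lower in every Dox plus inhibitor library, and COX6C changed by -0.40 ± 0.10 (SE, adjusted p = 0.00851 by limma). In uninduced cells COX6C was called at -0.27 with an adjusted p of 0.0498, a call that ended without any 1 of 10 libraries, namely all but Dox plus inhibitor replicate 1 and inhibitor replicate 1.

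NDUFB6, an accessory subunit of the membrane arm of complex I, had 33.3, 35.5 and 36.0 FPKM with Dox plus inhibitor, against 50.5, 41.2 and 48.9 with Dox, at -0.41 ± 0.09 (SE, adjusted p = 0.0054 by limma). In uninduced cells it had 39.6, 31.9 and 35.4 FPKM with the inhibitor, against 39.2, 37.2 and 41.7 with vehicle. Those groups overlap, and the change of -0.14 was not called (adjusted p = 0.24).

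The changes with and without Dox are differences between groups that share no library, so their values can be set side by side. Their calls rest on a spread estimated for each gene from all 12 libraries, so the called lists are not independent. Of the 30 genes lower without Dox and the 23 lower with it, 19 were the same, which is 63.3% of the first list and 82.6% of the second. They comprise NDUFS1, NDUFS3, NDUFS7, NDUFV2, NDUFA5, NDUFA9, NDUFB3 and NDUFB5 of complex I, UQCRC2 and UQCRFS1 of complex III, COX6C, COX8A and COX7A2L, and ATP5A1, ATP5C1, ATP5F1, ATP5G3, ATP5J and ATP5L of complex V. Across the 80 genes the changes were negative in both for 65, and their Pearson r was 0.79. This is a description across genes of the same libraries, which are not independent replicates. Neither the overlap nor these values were calculated over all tested genes, so they cannot be read as a trait of the chain.

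**Figure D3:**
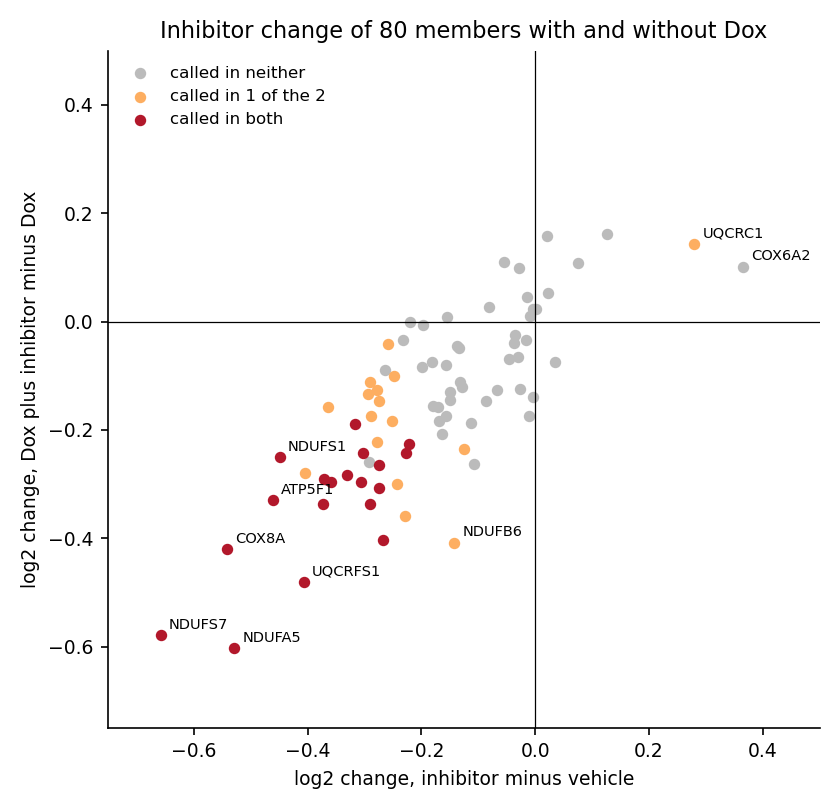
Log2 change of each of the 80 tested genes with the inhibitor in uninduced cells (horizontal) and in Dox-treated cells (vertical), coloured by the number of comparisons in which the gene was called. NDUFS7, NDUFA5, COX8A and UQCRFS1 lie at the lower left, UQCRC1 alone among the called genes lies at the upper right, and 65 genes are negative on both axes.

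Dox alone moved few of these genes. With Dox against vehicle 2 of the 80 (2.5%) were higher and 0 lower, against a background of 10.6% higher and 7.31% lower over all tested genes, and 11 of the 80 had an unadjusted limma p under 0.05. The median change was 0.01 over the 80 and 0.04 over all tested genes. Both called genes belong to complex III. UQCRFS1 had 140, 142 and 155 FPKM with Dox, against 126, 106 and 107 with vehicle, and UQCRC2 had 39.6, 41.3 and 39.5 with Dox, against 33.5, 34.4 and 35.4 with vehicle.

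Neither gene overlapped between the groups. The change was 0.36 ± 0.11 for UQCRFS1 (SE, adjusted p = 0.0487 by limma) and 0.215 ± 0.07 for UQCRC2 (SE, adjusted p = 0.0495 by limma). Both calls lay close to the threshold and ended after median-ratio scaling, with a pseudocount of 0.1 and with no filter. Quantile normalization also ended the UQCRC2 call, and removal of the trend on GC content and length the UQCRFS1 call. The UQCRFS1 call also ended without any 1 of 9 libraries and the UQCRC2 call without any 1 of 10, in both cases each Dox and each Dox plus inhibitor library, inhibitor replicate 2 and vehicle replicates 2 and 3, and for UQCRC2 also vehicle replicate 1. UQCRC1 had 80.7, 85.0 and 80.5 FPKM with Dox, against 106, 94.3 and 90.2 with vehicle, and just missed the threshold at -0.23 (adjusted p = 0.0511). Without replicate 1 of each group, 4 genes (5%) were higher and 2 (2.5%) lower with Dox, against 11.7% and 7.28% of all genes.

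In the presence of the inhibitor, Dox was followed by 6 higher genes (7.5%) and 1 lower gene (1.25%). The background over all tested genes was 12.2% higher and 6.06% lower, and 14 of the 80 had an unadjusted limma p under 0.05. The higher genes were NDUFV2, NDUFS1 and NDUFA12 of complex I, UQCRC2 of complex III and ATP5F1 and ATP5C1 of complex V, and the lower one was UQCRC1. This comparison uses the same inhibitor libraries as that of inhibitor with vehicle. There the changes of the 6 were -0.32, -0.45, -0.26, -0.37, -0.46 and -0.37 in this order, and that of UQCRC1 was 0.28.

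NDUFS1 had 31.4, 30.6 and 30.9 FPKM with Dox plus inhibitor, against 26.4, 25.8 and 25.4 with the inhibitor, a change of 0.25 ± 0.04 (SE, adjusted p = 0.00313 by limma). NDUFV2, a core subunit of the NADH-oxidising module, had 78.2, 71.4 and 73.7 FPKM with Dox plus inhibitor, against 61.5, 61.4 and 62.7 with the inhibitor. It changed by 0.26 ± 0.06 (SE, adjusted p = 0.012 by limma), and neither gene overlapped between groups. UQCRC1 had 91.6, 87.7 and 93.0 FPKM with Dox plus inhibitor, against 130, 115 and 109 with the inhibitor. Its change of -0.37 ± 0.07 (SE, adjusted p = 0.00734 by limma) kept its call under every alternative run.

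Of the 6 higher calls, only that of NDUFS1 remained after median-ratio scaling, and it ended when the trend on GC content and length was removed. Single libraries also ended calls: NDUFA12 without Dox plus inhibitor replicate 2, UQCRC2 when replicate 2 or 3 of Dox plus inhibitor or replicate 1 or 2 of the inhibitor was left out, ATP5F1 for those or replicate 1 of Dox plus inhibitor, and ATP5C1 without any 1 of 10 libraries (all but inhibitor 1 and vehicle 1). Without replicate 1 of each group 15 genes (18.75%) were higher, among them 5 of the 6, against 17.5% of all genes. With the replicate number as a block, which in this comparison pairs libraries that deviated together, 15 (18.75%) were higher and 1 lower, against 26.5% and 9.46% of all genes, and NDUFA4, NDUFA5, COX7B and UQCRFS1 were among those added. With Dox plus inhibitor replicate 2 left out there were 2, with replicate 3 of that group or inhibitor replicate 2 left out 3, and with inhibitor replicate 1 left out 10 (12.5%, against 7.97% of all genes). The change of a gene with Dox was related to its transcript's GC content over all tested genes (rank correlation -0.386 without and -0.555 with the inhibitor, across genes, a description).

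Whether the Dox change differed with the inhibitor was tested as an interaction. Over all tested genes 0.909% were called higher and 1.91% lower, and of the 80 respiratory chain genes 0 were called in either direction by limma, with 2 at an unadjusted p under 0.05. The largest values were -0.27 ± 0.13 for NDUFB6, -0.26 ± 0.29 for COX6A2 and 0.22 ± 0.15 for NDUFV3 (SE). Without replicate 1 of each group, 1 gene (1.25%) was called higher, ATP5E at 0.27, and 0 lower, against 1.52% and 2.37% of all genes.

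**Figure D4:**
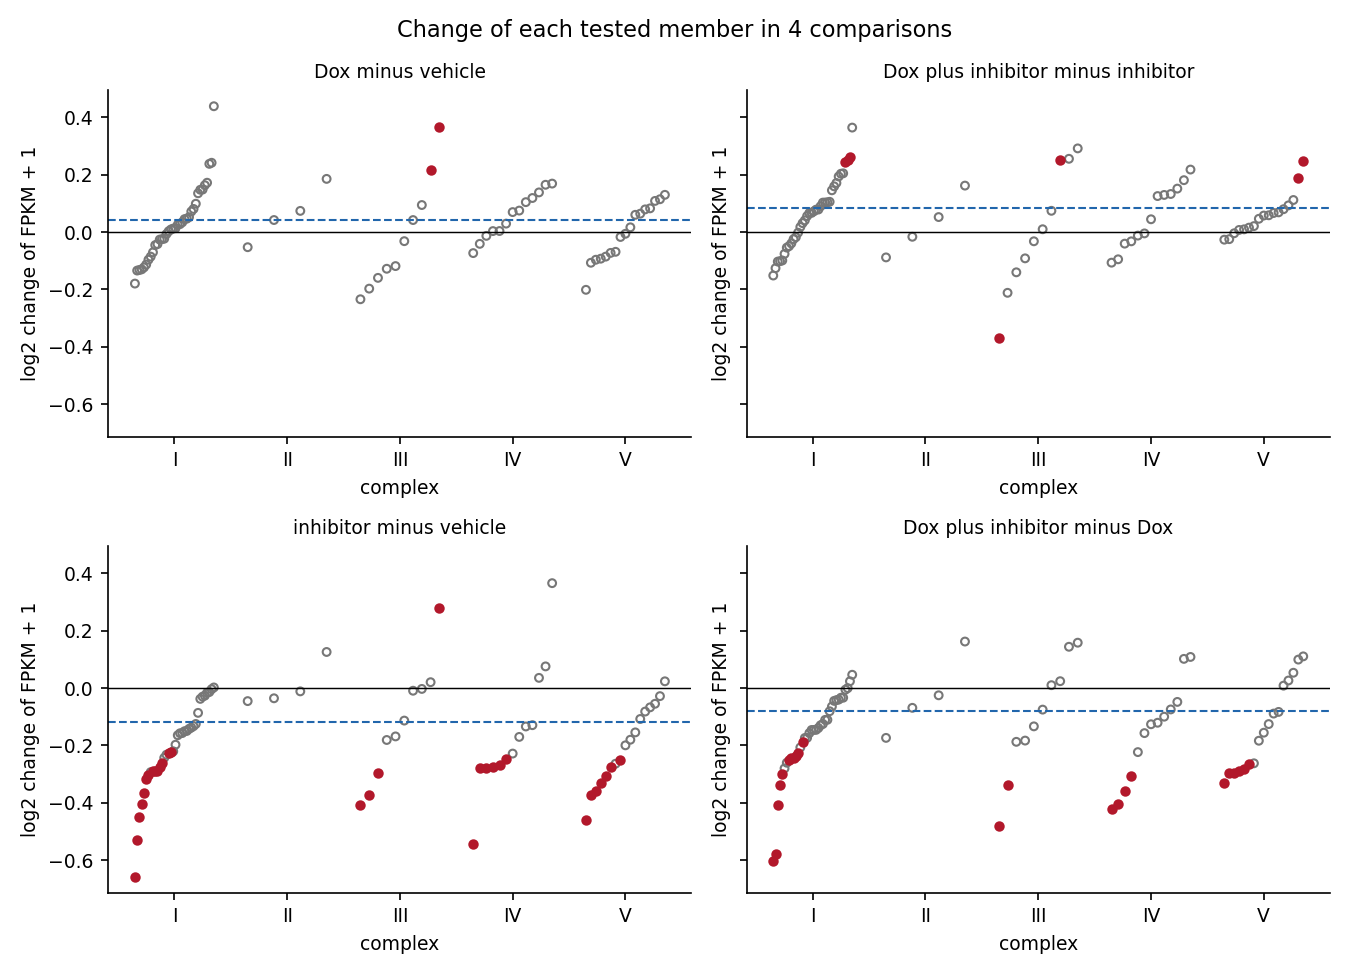
Log2 change of each tested gene (points, ordered within a complex) in the comparisons of Dox with vehicle, Dox plus inhibitor with inhibitor, inhibitor with vehicle and Dox plus inhibitor with Dox; filled points were called, and the dashed line is the median of all 12649 tested genes. The lower panels hold 30 and 23 genes called lower, and the upper panels 2 and 7 called genes.

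Subunit c of ATP synthase, which forms the rotating ring of the membrane part, is encoded by 3 genes whose mature protein is the same. ATP5G2 was the most abundant (221 FPKM on average), followed by ATP5G1 (85.6) and ATP5G3 (61.0). ATP5G2 and ATP5G3 were called lower with the inhibitor against vehicle (-0.25 and -0.27), ATP5G3 was called lower with Dox plus inhibitor against Dox (-0.26), and ATP5G1 had no call. The ATP5G2 call ended after median-ratio scaling and without any 1 of inhibitor replicates 2 and 3 and vehicle replicates 1 and 2, and both ATP5G3 calls ended after median-ratio scaling.

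The share of ATP5G1 in the summed FPKM of the 3 genes was 24.3%, 26.3% and 25.3% with Dox plus inhibitor, against 22.4%, 22.1% and 20.2% with Dox. Without Dox it was 24.1%, 25.2% and 24.9% with the inhibitor, against 21.0%, 22.0% and 22.7% with vehicle. The 6 libraries with inhibitor all lay above the 6 without it.

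The shares were calculated after the levels had been seen, and those of the 3 genes sum to 100% in each library, so they restate the levels above and are a description only. With the inhibitor, averaged over cells with and without Dox, the share of ATP5G1 differed by 3.3 percentage points, that of ATP5G2 by -2.07 and that of ATP5G3 by -1.23. With Dox, averaged over cells with and without the inhibitor, the differences were 0.0968 points for ATP5G1, -1.24 for ATP5G2 and 1.15 for ATP5G3.

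**Figure D5:**
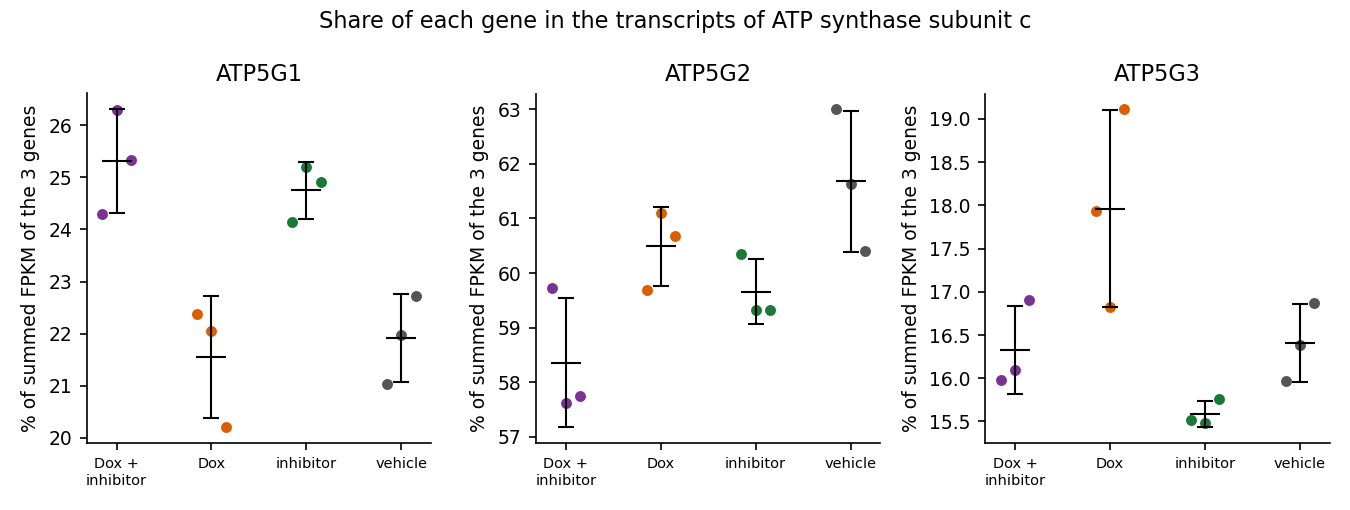
Share of each of the 3 subunit c genes in their summed FPKM (percent, vertical axes that do not start at 0), per library (points), with mean and SD (n = 3). The ATP5G1 share lies at 24.1% or more in the 6 libraries with inhibitor and at 22.7% or less in the 6 without.

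Genes that build or feed the chain were followed in 3 lists. Assembly factors, which insert cofactors and put the complexes together, had 56 tested of 57. With the inhibitor against vehicle 17 (30.4%) were lower and 1 higher, near the 26.3% lower over all tested genes. With Dox plus inhibitor against Dox 21 (37.5%) were lower and 1 higher, against 20.8% lower over all genes. Their median changes were -0.16 and -0.17, beside -0.12 and -0.08 over all tested genes. COX17, a copper chaperone for complex IV, had 60.2, 49.4 and 53.7 FPKM with the inhibitor, against 99.1, 91.7 and 95.1 with vehicle, and fell by 0.80 on the log2 scale (adjusted p = 2.9e-05 by limma). In Dox-treated cells it had 78.6, 65.0 and 71.4 FPKM with the inhibitor, against 122, 111 and 110 without it, and fell by 0.67 (adjusted p = 0.00012 by limma).

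CMC2 (-0.52 and -0.54), another complex IV factor, was lower in both of these comparisons, as was ATPAF1 (-0.50 and -0.22), a chaperone of the F1 part of ATP synthase. ATPAF2, the other F1 chaperone, was lower in Dox-treated cells (-0.57), as was ECSIT (-0.44), a complex I factor that was also called in uninduced cells (-0.20). TIMMDC1, an assembly factor of complex I, was the exception and was higher in both (0.23 and 0.24). With Dox against vehicle 4 assembly factors (7.14%) were higher and 0 lower, against 10.6% and 7.31% of all genes, led by TMEM126B, a complex I assembly factor, which had 33.5, 29.6 and 33.6 FPKM with Dox, against 17.2, 20.3 and 20.8 with vehicle. TMEM126B changed by 0.70 ± 0.10 (SE, adjusted p = 0.00049 by limma), PET117 by 0.47 and NDUFAF1 by 0.31. With the inhibitor present, Dox was followed by 7 higher (12.5%) and 1 lower assembly factors, against 12.2% and 6.06% of all genes, with TMEM126B at 0.44, COX17 at 0.39, PET117 at 0.36 and the lower gene ECSIT at -0.26. With the replicate block ATPAF2 was called lower there as well.

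Of 25 regulators of mitochondrial biogenesis 21 were tested. PPARGC1A, the coactivator PGC-1alpha, had 9.10, 8.79 and 9.37 FPKM with Dox, against 4.70, 6.06 and 6.30 with vehicle. It rose by 0.60 ± 0.13 (SE, adjusted p = 0.0097 by limma), while its relative PPRC1 fell by 0.25 (adjusted p = 0.0082 by limma). In Dox-treated cells PPARGC1A had 5.09, 5.43 and 6.11 FPKM with the inhibitor, against the Dox values above, and fell by 0.63 (adjusted p = 0.0044 by limma). Dox in the presence of the inhibitor gave 0 higher and 2 lower (9.52%) genes of this list, POLRMT (-0.28) and PPARA (-0.19), against 12.2% and 6.06% of all genes. With the replicate block PPARGC1A and GABPB1 were also called higher there, and PPRC1 and PPARD lower.

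With the inhibitor against vehicle 5 regulators (23.8%) were lower and 2 (9.52%) higher, against 26.3% and 11.7% of all genes. NRF1, which binds the motif searched above, had 4.31, 4.68 and 4.49 FPKM with the inhibitor, against 6.98, 6.01 and 5.91 with vehicle, and fell by 0.41 (adjusted p = 0.0039 by limma). GABPB1 (-0.40) and YY1 (-0.32) were lower as well, and the nuclear receptor genes PPARA (0.51) and PPARD (0.46) were higher. With Dox plus inhibitor against Dox 3 were lower (PPARGC1A, ESRRA at -0.58 and YY1 at -0.20) and 2 higher (PPARD and PPARA), which is 14.3% and 9.52%, against 20.8% and 11.3% of all genes. TFAM, which packages and transcribes mitochondrial DNA, had no call, and its replicate 1 was the lowest in 3 of the 4 groups.

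Electron carriers, exchangers and enzymes of coenzyme Q synthesis had 25 tested of 31. With the inhibitor against vehicle 11 (44%) were lower and 1 higher, against 26.3% and 11.7% of all genes. With Dox plus inhibitor against Dox 11 (44%) were lower and 2 higher, against 20.8% and 11.3% of all genes. NNT, the mitochondrial transhydrogenase, had 6.35, 6.31 and 7.13 FPKM with the inhibitor, against 11.5, 12.4 and 12.3 with vehicle, and fell by 0.78 (adjusted p = 2.1e-06 by limma). ETFDH, which passes electrons from fatty acid oxidation to coenzyme Q, was lower in both (-0.71 and -0.56), as were COQ7 (-0.53 and -0.46) and ETFB (-0.53 and -0.50). SLC25A4, the muscle-type adenine nucleotide carrier, was higher in both (0.43 and 0.19).

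With Dox against vehicle 5 of these 25 genes (20%) were higher and 0 lower, among them ETFDH (0.67), SLC25A4 (0.57) and NNT (0.50), against 10.6% higher over all genes. With the inhibitor present 6 (24%) were higher and 0 lower, against 12.2% higher over all genes, among them ETFDH (0.82), NNT (0.60) and UCP2 (0.42). CYCS, cytochrome c itself, had no call, with changes of 0.29 and 0.35 for Dox and -0.32 and -0.26 for the inhibitor. With the replicate block CYCS and ETFB were called higher with Dox in the presence of the inhibitor.

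Some of these calls rested on single libraries or on 1 setting. For Dox against vehicle, the NDUFAF1 call ended without Dox replicate 1 or 2 or vehicle replicate 1 or 2. For the inhibitor against vehicle, the ECSIT call ended without any 1 of 8 libraries (Dox 1, 2 or 3, Dox plus inhibitor 3, inhibitor 2 or 3, vehicle 1 or 2). For Dox plus inhibitor against Dox, the ATPAF1 call ended without Dox 1 or 2 or Dox plus inhibitor 1 or 3, the YY1 call without Dox 1 or 3 or Dox plus inhibitor 2, the PPARD call without Dox 3, and the SLC25A4 call without any 1 of 7 libraries (Dox 1, 2 or 3, Dox plus inhibitor 1 or 3, inhibitor 2, vehicle 2). For Dox plus inhibitor against the inhibitor, the TMEM126B call ended when the trend on GC content and length was removed (0.20, adjusted p = 0.101 by limma). In the same comparison the ECSIT call ended when replicate 1 or 3 of Dox plus inhibitor or replicate 1 or 2 of the inhibitor was left out, the POLRMT call for those or Dox 2, and the PPARA call without any 1 of 10 libraries (all but vehicle 1 and vehicle 3).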

How the data were processed

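Poly(A) RNA of 12 HK-2 libraries was sequenced from a stranded TruSeq mRNA kit, per the labels' protocols. The deposited table gives FPKM per gene symbol. Salmon 1.9.0, Trim Galore 0.6.7, GRCh38.p13 and hg38 appear in the submitters' processing notes. Neither annotation nor FPKM calculation is given in the sources used here. As the table has no counts, depth per library is unknown and counting error was not estimated.

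Columns were matched to samples by name. Genes with at least 1 FPKM in at least 3 of 12 libraries were analysed as log2(FPKM + 1), a scale that understates changes of low genes, without rescaling. In R 4.3.3, limma 3.58.1 (moderated, with trend) estimated the 4 group means and their shared spread from all 12 libraries, leaving 8 residual degrees of freedom; the script was tested on simulated data. Tests are two-sided, with Benjamini-Hochberg adjustment over all tested genes and a threshold of 0.05. The alternatives were median-ratio scaling, quantile normalization, a pseudocount of 0.1, other filters, GC content and length, the replicate number, and libraries left out; leaving out replicate 1 of all groups, and the subunit c shares, were added after the data were seen; a permutation test of those shares, added likewise, is not reported, since they restate the levels. The labels share replicate numbers between groups. Deviations from the group means correlated at 0.549, 0.133 and 0.337 between same-numbered libraries of Dox plus inhibitor and inhibitor, all above 0.1, so the fit with the replicate block is given beside that comparison. For inhibitor and vehicle they correlated at 0.686, 0.097 and 0.505, and the blocked counts are given beside that comparison too. The members and lists were chosen with earlier results of these data known. Genes named were the 6 with the largest called change in each direction of each comparison (3 uncalled where none was called), complex II, the isoform families, the highest and lowest per complex, the 3 largest called of each list and direction, and 7 checks; UQCRB and the UQCRC1 to UQCRC2 ratio were chosen after their values were seen. Coordinates and promoters are from RefSeq (GRCh38.p14), and lengths and GC content from GENCODE transcripts, available for 97.9% of tested genes and all 80 members tested.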

Additional observations from a re-analysis of the deposited data

Results flagged for a closer look

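Among the genes named here, 2 had a Dox change that differed with the inhibitor by the interaction test of limma. The first was TFE3, the induced gene itself, whose interaction was -0.47 ± 0.10 (SE, adjusted p = 0.0229): its Dox change was 1.57 with the inhibitor and 2.04 without it. That call ended without any 1 of 7 libraries (Dox 1, 2 or 3, Dox plus inhibitor 2 or 3, inhibitor 2, vehicle 2), with values of -0.54 to -0.41 over all alternatives.

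The second was UCP2, an inner-membrane carrier of the uncoupling protein family, at 0.49 ± 0.09 (SE, adjusted p = 0.00989). It had 261, 251 and 256 FPKM with Dox plus inhibitor, against 192, 198 and 184 with Dox, 200, 193 and 180 with the inhibitor and 218, 196 and 191 with vehicle. Every Dox plus inhibitor library lay above all others, and the call held under every alternative run (0.44 to 0.53). Of the 80 respiratory chain genes, 0 moved in opposite directions without overlap in the matched comparisons. The same count was not made over all tested genes, so it cannot be read as a trait of these genes. Groups of 3 libraries were not searched for single outlying samples.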

How the results depend on the processing

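With 1 library left out at a time, or replicate 1 of all groups, the counts of respiratory chain genes ran from 0 to 4 higher and 0 to 2 lower for Dox against vehicle (2 and 0 in the main analysis). For Dox plus inhibitor against inhibitor they ran from 2 to 15 higher and 1 to 2 lower (6 and 1), for inhibitor against vehicle from 1 to 2 higher and 19 to 47 lower (1 and 30; 45 without inhibitor replicate 1), for Dox plus inhibitor against Dox from 0 to 2 higher and 13 to 42 lower (0 and 23), and for the interaction from 0 to 1 higher and 0 lower. Below, counts are given as higher and lower in the order of Dox against vehicle, Dox plus inhibitor against inhibitor, inhibitor against vehicle and Dox plus inhibitor against Dox. Median-ratio scaling gave 0 and 1, 1 and 1, 2 and 10, and 3 and 13. Over all genes its shares were 8.486% and 10.42%, 5.567% and 9.435%, 17.51% and 14.5%, and 15.41% and 13.52%. Quantile normalization gave 6 and 1, 6 and 1, 2 and 27, and 2 and 28. Over all genes its shares were 7.89% and 10.33%, 5.945% and 8.562%, 15.99% and 16.19%, and 15.08% and 14.93%. For Dox against vehicle a pseudocount of 0.1 gave 0 higher, no filter 0 higher, and a mean FPKM of at least 5 gave 1 lower. The shares over all genes were 9.99% higher, 6.87% higher and 9.12% lower in this order. Removal of the trend on GC content and length gave 6 and 1, 14 and 1, 2 and 38, and 3 and 29. The shares over all genes were 17.3% and 9.8%, 20.5% and 6.49%, 13.9% and 36.45%, and 14.3% and 30.0%. The cause of these moves was not tested. Of the original calls, those that held under every alternative were 10 of 30 lower with inhibitor against vehicle, 12 of 23 lower with Dox plus inhibitor against Dox, UQCRC1 in both its comparisons, and 0 of the 8 higher calls with Dox. Outside the comparison of Dox plus inhibitor with inhibitor, not every same-numbered pair correlated above 0.1 in its deviations from the group means (-0.09 to 0.69). The numbers were therefore not taken as pairs there. For inhibitor and vehicle, where the correlations were 0.686, 0.097 and 0.505, the blocked counts are given beside the main ones. Of the 12 libraries, 8 correlated best with their own number, which is a hint only. With the replicate number as a replicate block the numbers became 6 and 4, 15 and 1, 1 and 42, and 2 and 37. The shares over all genes were then 17.65% and 11.93%, 26.49% and 9.463%, 13.96% and 34.79%, and 14.12% and 27.3%. The GC and length trend removed together with the replicate block gave 8 and 3, 20 and 3, 2 and 47, and 5 and 39. The shares over all genes in this fit were 21.04% and 12.19%, 27.04% and 8.188%, 15.11% and 40.38%, and 15.71% and 33.58%. In that last fit the value for ATP5G2, Dox plus inhibitor minus inhibitor, was 0.0876 and was called (adjusted p = 0.0373), against -0.00 in the main analysis. Depth is unknown, so no limit from counting can be given.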
